A study of Mus musculus with 6 samples.

Results

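Condensin is the ring-shaped protein machine that compacts chromosomes as cells enter mitosis, and the genes of its 8 subunits were examined in mouse embryonic fibroblasts (MEFs) with and without the H2B ubiquitin ligase gene Rnf40. The 8 members were taken by gene symbol from the 29955 genes of the deposited table, and all were present and had enough reads to be tested. RNA was sequenced from 3 libraries of Rnf40+/+ and 3 libraries of Rnf40-/- primary MEFs at passage 3, which are fibroblasts grown from mouse embryos. For the Rnf40-/- cells the conditional allele, with loxP sites around exons 3 and 4, was deleted by a tamoxifen-inducible Cre (CreERT2) that is expressed from the ubiquitously active Rosa26 locus, with 250 nM 4-hydroxytamoxifen (4-OHT) for 5 days and a further 3 days without it. Conditional MEFs came from embryos homozygous for the loxP allele that carried the Cre. Whether the Rnf40+/+ cells were such MEFs without 4-OHT or cells without the loxP allele is not given in the sources used here, so deletion and treatment cannot be told apart. No source says that the 3 libraries of a genotype came from separate embryos, so the tests measure the spread between these libraries, which may be technical.

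A condensin complex holds a pair of long coiled-coil ATPases, SMC2 and SMC4, whose heads are joined by a kleisin subunit that also carries a pair of HEAT-repeat proteins. Vertebrates have condensin I, with the kleisin NCAPH and the HEAT subunits NCAPD2 and NCAPG, and condensin II, with NCAPH2, NCAPD3 and NCAPG2 in the same places. Condensin II is in the nucleus throughout the cell cycle and begins compaction in prophase, whereas condensin I reaches the chromosomes after the nuclear envelope breaks down.

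In Rnf40-/- MEFs both shared SMC subunits, all 3 condensin I subunits and 1 of the 3 condensin II subunits were lower, and none was higher, since all 8 fold changes were negative in limma, edgeR and DESeq2. The fall was deepest for Ncapg, to 14.8% of the Rnf40+/+ mean, and shallowest for Ncaph, to 67.1%, while Ncapd3 and Ncaph2 of condensin II did not pass the test. The 6 members that fell (adjusted p under 0.05, limma on log2 of the normalized count + 1) were read against 24.1% of all 16378 genes tested that were lower by the same rule, 23.3% that were higher and 47.4% in either direction. Every Rnf40-/- library lay below every Rnf40+/+ library for the same 6 members, as it did for 28.7% of genes tested, and the reverse held for no member and 27.8% of genes. The median log2 fold change of the 8 members was -1.43, against -0.0035 for all genes tested. The study's thresholds for its classes (mean normalized count above 15, p under 0.05 and log2 fold change below -1) were applied to limma's unadjusted p and fold change. The study's own values, from DESeq, were not used. By these thresholds 5 members were downregulated, against 5.7% of genes tested, and no member met the mirrored upregulated class, which held 4.25%. In bulk RNA, fewer cells that express a gene and less RNA per cell cannot be told apart.

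**Figure D1:**
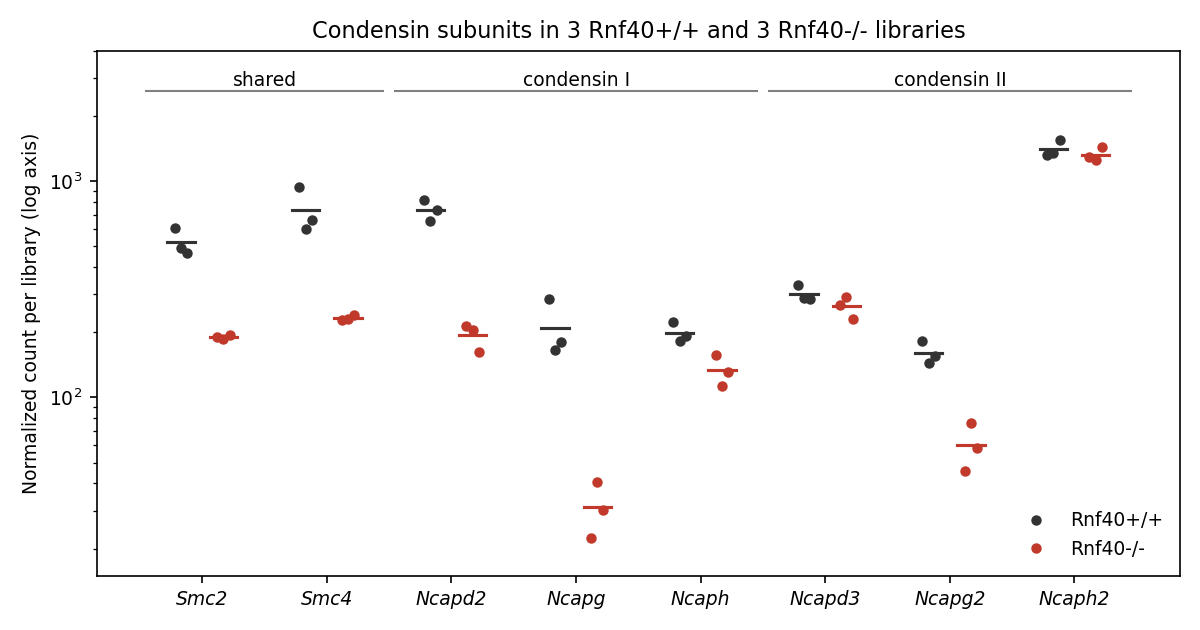
Normalized count (reads divided by 1 size factor per library) of each condensin subunit on a log axis, 1 point per library, with a line at the mean of the 3 libraries of a genotype. For 6 genes every Rnf40-/- point lies below every Rnf40+/+ point, and for Ncapd3 and Ncaph2 the points of the genotypes overlap.

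The depth was between 17053436 and 26344170 reads on genes per library, and the normalized count used here is the number of reads divided by the library's size factor, which lay between 0.837 and 1.25. The members were covered by at least 22 reads (Ncapg in an Rnf40-/- library) and up to 1947 reads (Ncaph2). Rnf40 itself, counted per gene and not over the deleted exons alone, lay between 1096 and 1278 normalized counts in Rnf40+/+ and between 439 and 519 in Rnf40-/- libraries, so that every library lay on the side of its label and 40.5% of the Rnf40+/+ mean was left. The fibroblast identity of the cells was checked with 8 markers, whose summed normalized count was between 668237 and 739419 in Rnf40+/+ and between 398751 and 401671 in Rnf40-/- libraries, and each of the 8 was lower in Rnf40-/-. Of the markers of other cells, the 6 macrophage genes summed to 929 to 1386 in Rnf40+/+ and 1141 to 1182 in Rnf40-/-, the 5 endothelial genes to 51.0 to 146 and 179 to 283, and the 5 epithelial genes to 434 to 779 and 559 to 792. Among those tested, 2 of 5 macrophage genes and 3 of 4 endothelial genes were higher in Rnf40-/-, and neither of the 2 epithelial genes passed. These counts and that of the fibroblast markers stand beside 24.1% of all genes tested that were lower and 23.3% that were higher. None of these genes was at 0 in every library, but some were near the limit of 3 reads. The endothelial genes Pecam1 and Cdh5, both called higher, had Rnf40+/+ means of only 3.75 and 2.76. The epithelial gene Epcam had an Rnf40+/+ mean of 0.53, and Cdh1 had means of 3.22 in Rnf40+/+ and 3.70 in Rnf40-/-. The endothelial gene Tek stood at 115 in Rnf40+/+ replicate 1, against 11.2 and 16.0 in replicates 2 and 3. Most of the upper Rnf40+/+ endothelial sum of 146 came from that value. The epithelial gene Krt8 stood at 58.5 in the same library, against 1.02 and 9.58. The part of macrophage, endothelial and epithelial cells in the results below was not tested.

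A list of 12 proliferation markers was lower, as were 6 of the 8 condensin subunits. Each of the 12 was lower in Rnf40-/- MEFs, against 24.1% of all genes tested, with a median log2 fold change of -2.30. Their summed normalized count was between 8465 and 10126 in Rnf40+/+ and between 3785 and 3842 in Rnf40-/- libraries. Rnf40+/+ replicate 1 had the highest value of its genotype for 9 of the 12 markers and for 7 of the 8 condensin subunits, with Ncaph2 as the exception. The part of the proliferation state in the condensin result was not tested, and fold changes without this library are given below for the members it moved most.

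The ATPases that all condensin shares fell by similar amounts. Smc2 (ENSMUSG00000028312, chromosome 4 of mm9, 52452115 to 52501237, plus strand) stood at 607, 488 and 467 normalized counts in Rnf40+/+ replicates 1 to 3 and at 189.7, 187 and 194 in those of Rnf40-/-. The values of the Rnf40-/- libraries were close to each other and far below the lowest Rnf40+/+ library. The log2 fold change was -1.44 ± 0.12 (standard error here and for the members that follow; limma, Benjamini-Hochberg adjusted p = 1.47e-06), from 521 ± 75.2 to 190.0 ± 3.39 (SD, n = 3 each), and it was -1.33 without Rnf40+/+ replicate 1. Smc4, its partner in the ring (ENSMUSG00000034349, chromosome 3, 68808660 to 68838545, plus strand), stood at 934, 598 and 662 normalized counts in Rnf40+/+ replicates 1 to 3 and at 227, 229.6 and 241 in those of Rnf40-/-. Rnf40+/+ replicate 1 stood above the other two Rnf40+/+ libraries, and again no Rnf40-/- library reached the lowest of them. Its log2 fold change was -1.62 ± 0.14 (limma, adjusted p = 2.89e-06), and -1.43 without Rnf40+/+ replicate 1.

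The proportion of Smc2 to Smc4 reads did not separate the genotypes. The log2 ratio of Smc2 to Smc4, with 1 added to each normalized count, was -0.62, -0.29 and -0.50 in Rnf40+/+ and -0.26, -0.30 and -0.31 in Rnf40-/-, and the values overlapped. The means differed by 0.18 (pooled SD 0.12), with p = 0.3 in an exact two-sided permutation test over the 6 libraries. Such a test of 3 against 3 libraries cannot go below 0.1. It was made for 6 pairs of genes, and the Benjamini-Hochberg adjusted p over the 6 was 0.3 for this pair and 0.12 for each of the others.

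The HEAT subunit of the D class had the widest gap in fold change between condensin I and condensin II among the 3 subunit classes, an order that was not itself tested. Ncapd2 of condensin I (ENSMUSG00000038252, chromosome 6, 125118027 to 125141613, minus strand) stood at 817, 654 and 732 normalized counts in Rnf40+/+ replicates 1 to 3 and at 213, 206 and 162 in those of Rnf40-/-. Every Rnf40-/- value was far below the lowest Rnf40+/+ value. The log2 fold change was -1.92 ± 0.13 (limma, adjusted p = 2.77e-07), from 734 ± 81.6 to 194 ± 27.4 (SD, n = 3 each). Ncapd3 of condensin II (ENSMUSG00000035024, chromosome 9, 26837760 to 26902896, plus strand) stood at 331, 287 and 283 normalized counts in Rnf40+/+ replicates 1 to 3 and at 268, 292 and 229 in those of Rnf40-/-. Rnf40-/- replicate 2 was within the Rnf40+/+ range, and the genotypes overlapped. The log2 fold change of -0.19 did not pass the test (limma, adjusted p = 0.216), and its 95% interval ran from -0.46 to 0.07.

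The log2 ratio of Ncapd2 to Ncapd3 was 1.3015, 1.19 and 1.37 in Rnf40+/+ and -0.33, -0.51 and -0.50 in the Rnf40-/- libraries. The genotypes were thus apart on either side of 0, and the difference of -1.73 was many times the pooled SD of 0.095. The exact permutation p of 0.1 is the smallest that 3 against 3 libraries allow.

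The HEAT subunit of the G class fell in both complexes, with the lower fold change in condensin I. Ncapg (ENSMUSG00000015880, chromosome 5, 46061161 to 46091783, plus strand) stood at 284, 166 and 180.5 normalized counts in Rnf40+/+ replicates 1 to 3 and at 22.4, 40.7 and 30.2 in those of Rnf40-/-. The Rnf40-/- values were all far below the lowest Rnf40+/+ value, and the high Rnf40+/+ value was that of replicate 1. The log2 fold change was -2.72 ± 0.26 (limma, adjusted p = 5.19e-06), and -2.48 without that library. Only 0.372% of the genes tested had a lower log2 fold change than Ncapg. Ncapg2 of condensin II (ENSMUSG00000042029, chromosome 12, 117643875 to 117702004, plus strand) stood at 183, 144 and 155 normalized counts in Rnf40+/+ replicates 1 to 3 and at 45.9, 76.2 and 58.5 in those of Rnf40-/-. The genotypes did not overlap, and the log2 fold change was -1.42 ± 0.20 (limma, adjusted p = 0.000128). It ranged from -1.60 to -1.24 as each library was left out.

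The log2 ratio of Ncapg to Ncapg2 was 0.63, 0.21 and 0.22 in Rnf40+/+ and -1.001, -0.89 and -0.93 in Rnf40-/-, a difference of -1.29 (pooled SD 0.18, exact permutation p = 0.1, the smallest possible). Every Rnf40+/+ library had more reads on Ncapg than on Ncapg2 and every Rnf40-/- library had fewer. Exons of Lcorl on the opposite strand cover 942 bp (13.3%) of the annotated exons of Ncapg, and though the library kit keeps the strand, whether the counting used the strand is not given in the sources used here. Lcorl had 91.2 ± 20.7 normalized counts in Rnf40+/+ and 110.1 ± 10.97 in Rnf40-/- MEFs (SD, n = 3 each), and its log2 fold change of 0.29 did not pass the test (limma, adjusted p = 0.236).

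The promoters of Ncapg and Ncapg2 are shown because both genes fell and both windows hold the cell cycle homology region (CHR) letters TTTGAA within a short distance before the start site. Each sequence runs 5′ to 3′ on the gene's strand from 250 bases before to 50 after the start site that RefSeq annotates in GRCm38.p6, and was found once in NCBIM37 (mm9), at chr5:46060914-46061213 (plus strand) for Ncapg and chr12:117643659-117643958 (plus strand) for Ncapg2. Capitals mark matches on either strand to TTTGAA (CHR), TTCGAA (a CHR variant), CCAAT (the CCAAT box bound by NF-Y) or the E2F core letters TTCCCGC with its variants, which are TTCGCGC as well as TTGCCGC together with TTGGCGC.
Ncapg: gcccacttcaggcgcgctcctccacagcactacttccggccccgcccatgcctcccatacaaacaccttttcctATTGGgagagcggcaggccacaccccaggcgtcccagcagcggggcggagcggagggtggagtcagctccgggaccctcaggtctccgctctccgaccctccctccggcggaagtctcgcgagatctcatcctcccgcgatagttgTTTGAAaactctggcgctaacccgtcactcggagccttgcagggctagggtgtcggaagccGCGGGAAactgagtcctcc
Ncapg2: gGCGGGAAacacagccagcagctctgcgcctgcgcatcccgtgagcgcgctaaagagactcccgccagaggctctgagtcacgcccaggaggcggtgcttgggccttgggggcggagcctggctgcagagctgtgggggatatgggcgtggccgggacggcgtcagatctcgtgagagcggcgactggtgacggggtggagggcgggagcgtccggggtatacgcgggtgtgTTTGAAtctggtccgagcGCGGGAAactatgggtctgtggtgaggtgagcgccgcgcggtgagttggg
Counted from the start site, with negative numbers before it, the CHR match begins at -30 in Ncapg and at -18 in Ncapg2. Ncapg also has a CCAAT box match beginning at -176 and an E2F core match in the transcribed part, and Ncapg2 has E2F core matches at the far end of the window and at the start site itself.

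The kleisin, which closes the ring, had the fold change nearest to 0 in each complex, though in condensin II that of Ncapd3 was close to it. Ncaph of condensin I (ENSMUSG00000034906, chromosome 2, 126929545 to 126959690, minus strand) stood at 223, 182 and 192 normalized counts in Rnf40+/+ replicates 1 to 3 and at 157, 113 and 131 in those of Rnf40-/-. The groups did not overlap but were close, and the highest Rnf40-/- library was replicate 1. The log2 fold change was -0.58 ± 0.15 (limma, adjusted p = 0.00861), and it was the called member nearest to the threshold, with an adjusted p of up to 0.0429 without Rnf40-/- replicate 2. Ncaph2 of condensin II (ENSMUSG00000008690, chromosome 15, 89186150 to 89203257, plus strand) stood at 1316, 1347 and 1555 normalized counts in Rnf40+/+ replicates 1 to 3 and at 1291, 1251 and 1429.5 in those of Rnf40-/-. The genotypes overlapped, the log2 fold change of -0.09 did not pass the test (limma, adjusted p = 0.427), and its 95% interval from -0.27 to 0.10 was the narrowest among the members. Exons of Sco2 on the opposite strand cover 768 bp (18.3%) of the annotated exons of Ncaph2, and Sco2 has no value under that symbol here, so its part in the Ncaph2 value was not tested.

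The log2 ratio of Ncaph to Ncaph2 was -2.55, -2.88 and -3.01 in Rnf40+/+ and -3.03, -3.46 and -3.44 in the Rnf40-/- libraries. The highest Rnf40-/- value was just below the lowest Rnf40+/+ value, and the difference of -0.49 (pooled SD 0.24, exact permutation p = 0.1, the smallest possible) was the smallest of the pairs that did not overlap.

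The promoters of the kleisin genes are shown beside those above, as neither holds the letters TTTGAA on either strand. Of these 2 genes Ncaph was also lower in Rnf40-/-. The same windows were found once in mm9, at chr2:126959641-126959940 (minus strand) for Ncaph and chr15:89185900-89186199 (plus strand) for Ncaph2.
Ncaph: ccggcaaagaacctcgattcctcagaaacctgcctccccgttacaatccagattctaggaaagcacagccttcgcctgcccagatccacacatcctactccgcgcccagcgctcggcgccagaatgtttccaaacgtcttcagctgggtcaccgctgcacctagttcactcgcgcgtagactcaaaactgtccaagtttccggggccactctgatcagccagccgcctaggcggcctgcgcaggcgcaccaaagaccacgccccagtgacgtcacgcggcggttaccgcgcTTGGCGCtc
Ncaph2: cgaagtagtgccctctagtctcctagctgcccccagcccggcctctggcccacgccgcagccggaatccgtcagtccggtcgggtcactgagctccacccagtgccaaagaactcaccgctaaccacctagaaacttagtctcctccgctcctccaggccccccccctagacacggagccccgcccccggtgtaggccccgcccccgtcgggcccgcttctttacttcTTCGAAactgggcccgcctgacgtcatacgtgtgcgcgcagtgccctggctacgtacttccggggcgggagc
Ncaph has a single E2F core match, beginning at 42 in the transcribed part, and Ncaph2 has the CHR variant beginning at -22.

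The same letters were searched in the windows of the other members in the promoter table used here, which was matched for all members but Smc4, and no match overlapped one to another motif. Of 7 member genes with a window, 5 held TTTGAA on either strand (Smc2, Ncapd2, Ncapg, Ncapg2 and, at its further start site, Ncapd3), against 20.2% of 27025 genes. Their positions differ, as outside Ncapg and Ncapg2 the matches began at -123 in Ncapd2, at -145 and 27 in Smc2 and at -249 in Ncapd3. The E2F core was held by 5 of the 7 (Ncapd2, Ncapd3, Ncapg, Ncapg2 and Ncaph), against 10.9% of genes, and the CCAAT box by Smc2, Ncapd2 and Ncapg, against 41.1%. The CHR variant of Ncaph2 was held by 1.80% of genes. Of the 5 genes with TTTGAA, Ncapd3 did not pass the test and the others were lower in Rnf40-/-, as was Ncaph without it, where 24.1% of all genes tested were lower. A match describes letters in a window, and binding was not measured here.

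**Figure D2:**
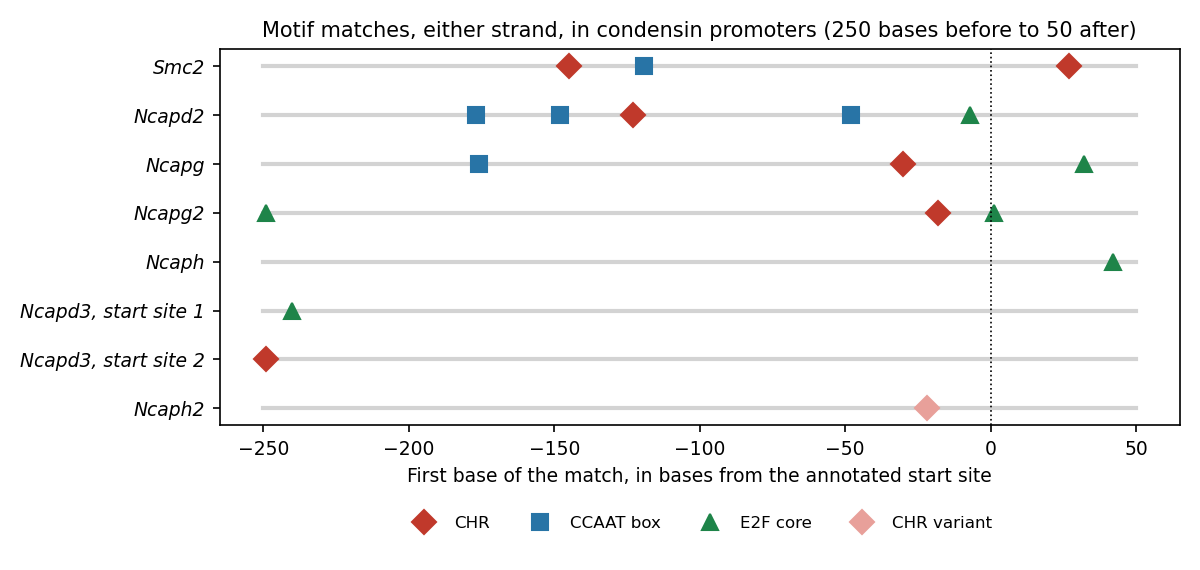
Position of motif matches on either strand in the promoter windows of the 7 condensin genes matched in the promoter table, in bases from the annotated start site (dotted line). CHR matches (TTTGAA) of Ncapg and Ncapg2 begin at -30 and -18. Ncaph and Ncaph2 have no TTTGAA match, but Ncaph2 has the CHR variant TTCGAA beginning at -22.

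Levels of different genes were compared per length, as the normalized count per kilobase of the longest annotated coding transcript. In Rnf40+/+ MEFs Ncaph2 was highest, with 426 ± 39.3 per kilobase, followed by Smc4 with 169 ± 41.4 and Ncapd2 with 162 ± 18.1 (SD, n = 3 each), which did not differ beyond their spread. Smc2 had 94.98 ± 13.7, Ncaph 73.9 ± 8.04, Ncapg 56.9 ± 17.4 and Ncapd3 54.6 ± 4.82, of which Ncapg overlapped both Ncaph and Ncapd3 in its range, and Ncapg2 was lowest with 24.3 ± 3.04. In Rnf40-/- MEFs Ncaph2 was again highest, with 401 ± 28.3 per kilobase, followed by Smc4 with 53.9 ± 1.66, Ncaph with 49.6 ± 8.26, Ncapd3 with 47.9 ± 5.76 and Ncapd2 with 42.8 ± 6.05, each overlapping the next. Smc2 lay below them with 34.7 ± 0.618, and Ncapg2 and Ncapg were lowest and overlapped, with 9.12 ± 2.31 and 8.41 ± 2.48. The order depends on the length used. Per kilobase of the union of all annotated exons, Ncaph (27.5 to 38.3) overlapped Smc2 (33.5 to 34.7) in Rnf40-/- libraries. Ncapg (3.18 to 5.76) then lay below Ncapg2 (6.95 to 11.5) there. In Rnf40+/+ MEFs the mean of Ncaph (48.6) was then below that of Ncapd3 (54.6).

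On this scale the condensin I subunits of the D and G classes came down to the level of their condensin II counterparts. Ncapd2 was at 145 to 181 per kilobase against 51.6 to 60.2 for Ncapd3 in Rnf40+/+ libraries, and at 35.9 to 47.1 against 41.7 to 53.1 in Rnf40-/- libraries, where the ranges overlapped. Ncapg was at 44.9 to 76.9 per kilobase against 21.8 to 27.7 for Ncapg2 in Rnf40+/+ libraries, and at 6.07 to 11.01 against 6.95 to 11.5 in Rnf40-/- libraries. The kleisins did not follow this pattern, since Ncaph was below Ncaph2 in both genotypes. The length of the transcript that was counted is not given in the sources used here, and with the union of all annotated exons Ncapg had 29.8 per kilobase in Rnf40+/+ MEFs, where its range of 23.5 to 40.3 overlapped that of Ncapg2, and 4.41 against 9.12 for Ncapg2 in Rnf40-/- MEFs.

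**Figure D3:**
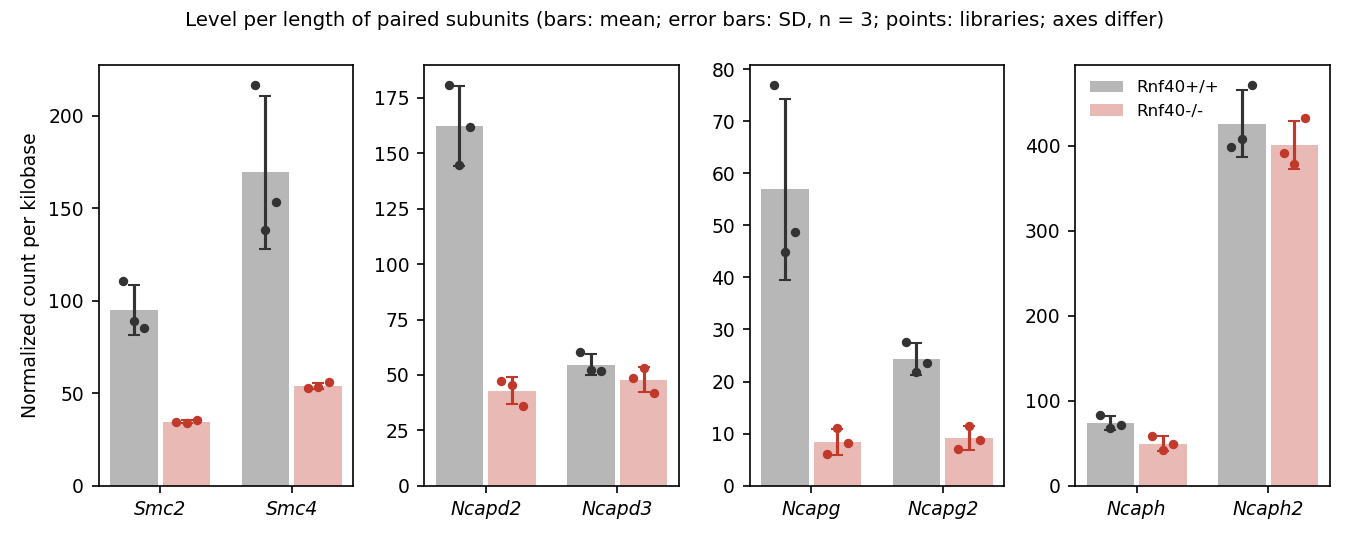
Normalized count per kilobase of the longest coding transcript for the SMC pair and for each condensin I subunit beside its condensin II counterpart, with bars at the mean, error bars of 1 SD (n = 3) and a point per library on separate linear axes. Ncapd2 and Ncapg exceed their counterparts in Rnf40+/+ and overlap them in Rnf40-/- libraries, while Ncaph2 is far above Ncaph in both.

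The genes that work with condensin on mitotic chromosomes were taken as a list of 25 partners and regulators, of which 24 were in the table and tested. Of these, 15 were lower and 4 higher in Rnf40-/- MEFs, against 24.1% and 23.3% of all genes tested, with a median log2 fold change of -1.54. The count of higher genes is thus no larger than the share over all genes. Several mitotic kinase genes of the list fell, among them Cdk1, which phosphorylates condensin at mitotic entry (-2.05, limma adjusted p = 1.15e-07), its cyclin Ccnb1 (-3.24, adjusted p = 5.9e-07), Plk1 (-3.12, adjusted p = 2.93e-07) and Aurkb (-2.14, adjusted p = 2.96e-06). Top2a, the topoisomerase that untangles DNA as condensin folds it, fell by 3.20 in log2 units (limma, adjusted p = 2.33e-08), from 1146 to 122 normalized counts, whereas its non-mitotic paralogue Top2b had 3589 and 3573 (log2 fold change -0.01, adjusted p = 0.947). The chromosome motor Kif4, which works beside condensin on the chromosome axis, fell by 2.55 (limma, adjusted p = 2.59e-06). The other members of the chromosomal passenger complex fell with Aurkb, with log2 fold changes of -2.16 for Birc5, -1.64 for Cdca8 and -1.57 for Incenp, and so did Mki67, which coats mitotic chromosomes, with -2.84. The genes Mki67, Top2a and Ccnb1 are also among the 12 proliferation markers. Setd8, which writes the H4K20 monomethylation that condensin II can bind, fell by 0.62 (limma, adjusted p = 1.66e-05).

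The 4 partner genes that were higher were the casein kinase subunit Csnk2a1 (log2 fold change 0.42, limma adjusted p = 0.000261), whose kinase acts on condensin in interphase, the protein phosphatase 2A subunits Ppp2ca (0.38, adjusted p = 0.000406) and Ppp2r1a (0.41, adjusted p = 0.000309), and the tankyrase Tnks (0.21, adjusted p = 0.0196). Tnks did not pass without Rnf40+/+ replicate 1 (0.0645), Rnf40-/- replicate 1 (0.103) or Rnf40-/- replicate 2 (0.0678). Mcph1, the antagonist of condensin II, had 183 and 213 normalized counts (log2 fold change 0.21) and did not pass the test (limma, adjusted p = 0.194). Mcph1, Akap8, Phf8, Csnk2a2 and Top2b were the 5 partner genes not called in either direction.

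Cohesin and SMC5/6, the other complexes built on SMC ATPases, were compared as the closest relatives of condensin. Of their 11 core genes 2 were lower and 3 higher in Rnf40-/- MEFs, with a median log2 fold change of 0.10, and these counts are near the shares of all genes tested (24.1% lower and 23.3% higher). Those lower were the cohesin ATPase Smc1a (-0.27, limma adjusted p = 0.00954) and the SMC5/6 kleisin Nsmce4a (-0.60, adjusted p = 0.000117). Those higher were the cohesin kleisin Rad21 (0.26, limma adjusted p = 0.0167), the cohesin subunit Stag2 (0.26, adjusted p = 0.00722) and the SMC5/6 subunit Nsmce1 (0.32, adjusted p = 0.0055). Without Rnf40-/- replicate 2 neither Smc1a (adjusted p = 0.0533 from limma) nor Rad21 (0.0518) passed, so that 1 of the 11 genes was lower. Rad21 also missed the threshold without Rnf40-/- replicate 1 (0.0717), and Ndnl2, another SMC5/6 subunit, was lower without Rnf40+/+ replicate 1 (0.0262).

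The difference between condensin and cohesin was tested for their ATPases. The log2 ratio of Smc2 to Smc3 was -1.18, -1.32 and -1.44 in Rnf40+/+ and -2.77, -2.99 and -2.81 in the Rnf40-/- libraries, a difference of -1.54 (pooled SD 0.12). The log2 ratio of Smc4 to Smc1a was -0.94, -1.47 and -1.28 in the Rnf40+/+ and -2.69, -2.51 and -2.55 in the Rnf40-/- libraries, a difference of -1.35 (pooled SD 0.20). In both pairs the genotypes did not overlap, and both had p = 0.1 in the exact permutation test, the smallest possible. As ratios within a library, these values hardly depend on how libraries were scaled.

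**Figure D4:**
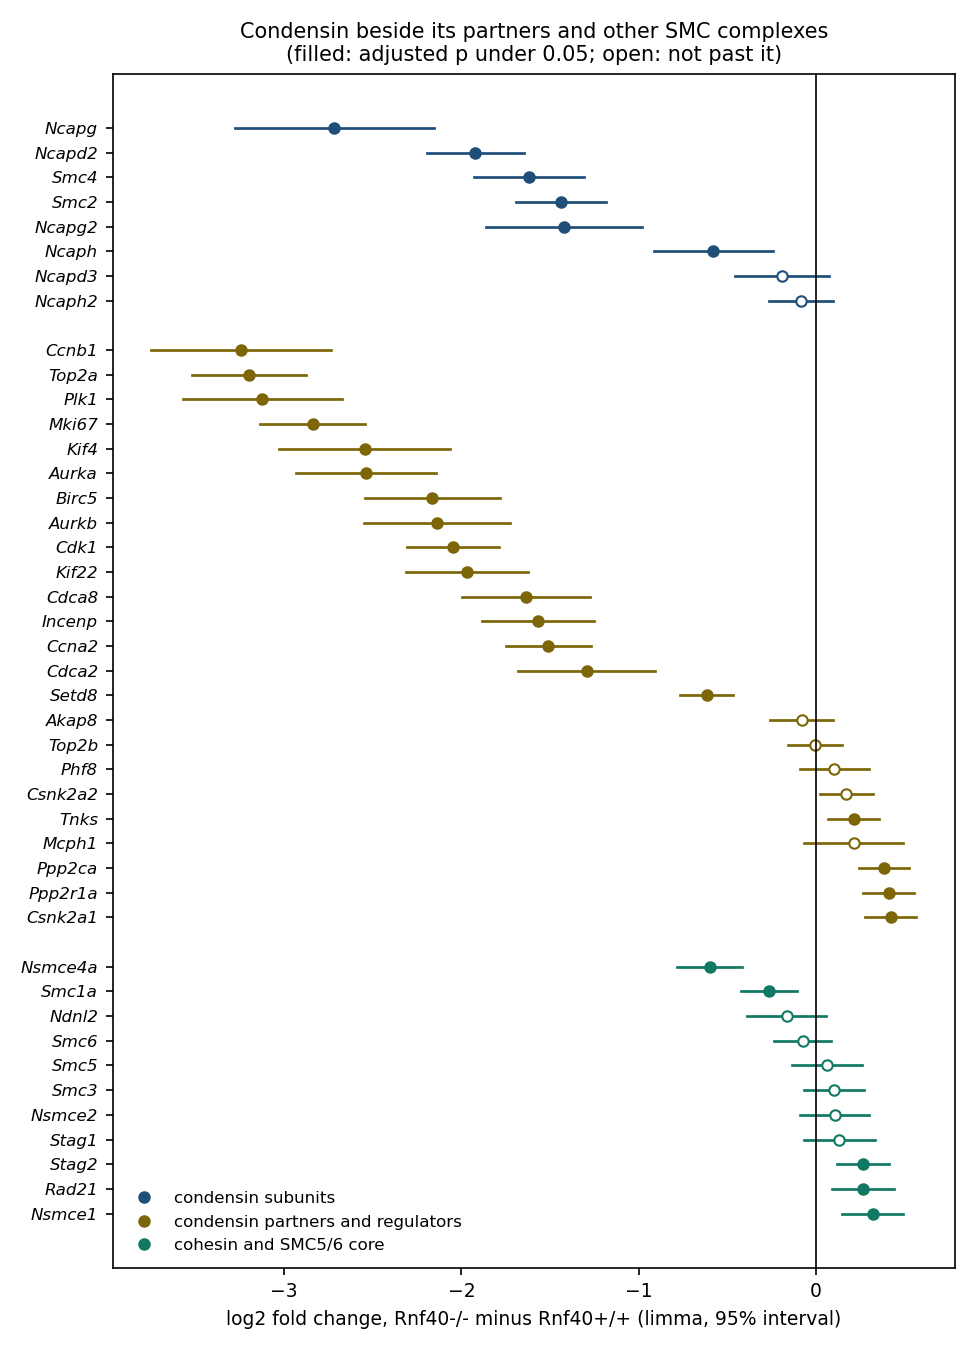
Log2 fold change between genotypes with its 95% interval from limma for the 8 condensin subunits, 24 partners and regulators and 11 cohesin and SMC5/6 genes, with filled points where the adjusted p was under 0.05. The condensin subunits run from -2.72 for Ncapg to -0.09 for Ncaph2, whereas the cohesin and SMC5/6 genes lie between -0.60 and 0.32.

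The genes most like condensin over the 6 libraries were sought by the root mean square distance between log2 profiles centred on each gene's mean. For the mean of the 3 condensin I subunits, the genes near it included Cks2, a cyclin-dependent kinase partner (distance 0.090, log2 fold change -1.72), the chromatin remodeller Hells (0.11, -1.87) and the helicase Blm (0.12, -1.88). The second nearest row (0.11) bears a symbol that a spreadsheet had turned into a date, and it is not named here. Ncapd2 lay at 0.14 from that mean, but Ncapg lay at 0.54 and Ncaph at 0.61, on opposite sides of it. For condensin II the members lay at 0.21 (Ncapd3), 0.28 (Ncaph2) and 0.45 (Ncapg2) from their own mean, which falls between the single strong responder and the others, so that its nearest genes, Crry, Socs2, Gjc1, Cirbp and Wdr85 at 0.036 to 0.052, resemble no single subunit.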

How the data were processed

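Per the labels and the study's methods, total RNA was made into libraries with a directional kit, and reads were mapped by the authors against the mm9 mouse transcriptome and normalized with DESeq. The processing notes name Bowtie2 (version 2.1.0) and DESeq (version 1.14.0), and the counting tool is not given in the sources used here. The deposited signal per gene is a read count divided by 1 size factor per library. In each library 100% of positive values came out whole (within 0.01) once expressed as reads. On these reads edgeR called 3940 genes lower and 3857 higher.

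Genes passing filterByExpr of edgeR (version 4.0.16) were fitted with limma (version 3.58.1, lmFit and eBayes with trend) on log2(normalized count + 1), which understates the change of low genes, on genotype alone, and p-values were adjusted by Benjamini-Hochberg over 16378 genes. Alternatives were other normalizations, pseudocounts and filters, edgeR's quasi-likelihood test and DESeq2 (version 1.42.0) on the recovered reads, a replicate block and each library left out. R (version 4.3.3), Python (version 3.11.15) and scipy (version 1.17.1) were used, and the fits were tested on simulated data. Gene positions and lengths came from GENCODE M1 for NCBIM37 (mm9) and promoters from RefSeq.

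Members and lists were chosen with earlier results of these data known. The genes named are the 8 members, the genes of the partner and the cohesin and SMC5/6 lists, and the 5 genes nearest to each complex's mean profile, of which 1 is not reported here. Lcorl and Sco2 were added for their overlap with members. No library pair was a duplicate (chi-square per gene from 5.04 to 26.9 within a genotype).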

Additional observations from a re-analysis of the deposited data

How the results depend on the processing

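Under all 17 alternatives 6 condensin subunits were lower, none was higher and 5 met the study's thresholds with the p and fold change of that alternative. The direction and call of each subunit held. The log2 fold change of Ncapg lay between -2.92 and -2.41 and that of Ncaph between -0.70 and -0.46. Ncapd3 and Ncaph2 did not pass the threshold under any alternative, with adjusted p of at least 0.136 and 0.243. The partner list kept 15 lower genes in count, with 3 to 5 higher (Csnk2a2 joined with TMM scaling and in edgeR, and Tnks was lost without each of 3 libraries). Cohesin and SMC5/6 genes lower numbered between 1 (without Rnf40-/- replicate 2) and 3 (without Rnf40+/+ replicate 1). The difference of the log2 ratio of Ncapg to Ncapg2 was -1.11 with a pseudocount of 10, as an added 10 weighs more on the low counts of Ncapg. The median log2 fold change of all genes lay between -0.0141 and 0.0334 under every alternative. Deviations of same-numbered libraries correlated at 0.012, 0.017 and 0.021, and those of differently numbered ones at between -0.0531 and 0.0371. As the deviations were taken within 3 libraries, these values cannot decide whether the replicate numbers pair the libraries. With the replicate number as a block the log2 fold changes were the same (Ncaph -0.58, adjusted p = 0.0031 from limma), and 4196 genes were lower and 4021 higher, against 3955 and 3809 without it. Lengths per exon union, chosen after seeing the data, lowered the Rnf40+/+ level per kilobase of Ncaph to 48.6 and of Ncaph2 to 335. Ncapg in Rnf40-/- libraries, with 22 reads at its lowest, is limited most by depth.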
